A study of Saccharomyces cerevisiae with 30 samples.

Results

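The centromere-excision effect at 60 min is the change in RNA over the first 60 min after beta-estradiol in yeast cells that lose the centromere of chromosome IV, minus the change over the same time in control cells that keep it. It was computed as (cen4- at 60 min minus CEN4* at 0 min) minus (CEN4 at 60 min minus CEN4 at 0 min) on log2(normalised count + 1). The 4 groups it needs hold 12 of the 30 RNA sequencing libraries of the series, 3 in each group. All were total RNA from whole populations of haploid MATa Saccharomyces cerevisiae in the S288c background, grown in YPD (rich medium with glucose) at 30 °C and collected in 3 independent experiments. Both strains were met15-delta-0, ura3-delta-0, leu2-delta-0 and his3-delta-1, and had Cre-EBD78 inserted at ura3 with the LEU2 marker. Cre-EBD78 is a recombinase that estradiol switches on, here expressed from the GDP promoter. The CEN4 strain had an ordinary chromosome IV centromere. In the other strain the centromere lay between lox sites beside the KanMX marker, and the labels call this strain CEN4* before the excision and cen4- after it. Each culture received 1 µM beta-estradiol at 0 min, so both groups at 60 min had been given the hormone and carried the recombinase gene. The share of cells in which the centromere had been removed by 60 min was not measured in these files.

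The budding yeast centromere is a point centromere, a short stretch of DNA on which a single kinetochore is built to attach the chromosome to a spindle microtubule. It has 3 conserved elements. CDEI is bound by Cbf1, CDEII is a run of A and T that wraps the centromeric nucleosome with the histone variant Cse4, and CDEIII is bound by the CBF3 complex. A chromosome without this stretch cannot be held by the spindle, and unattached sister chromatids are passed on unevenly at division.

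The promoters of 3 genes whose effects are described below are given from the RefSeq reference sequence, build R64, each as the 200 bases that lie 300 to 101 bases upstream of the start codon, read 5′ to 3′ along the gene's strand. They were chosen after the values were seen, 1 from each of 3 groups of genes, because they hold the motif of the transcription factor best known for that group. Capitals mark the motif, found by a search of both strands over 300 bases upstream. CTT1 (chrVII:654334-654533, plus strand) has the stress response element AGGGG of Msn2 and Msn4, here as its reverse complement. MET14 (chrXI:439486-439685, minus strand) has CACGTG, the site of Cbf1. STI1 (chrXV:380753-380952, plus strand) has the heat shock element, searched as the units TTC, GAA and TTC in this order with any 2 bases between neighbours, on each strand once.
CTT1 promoter: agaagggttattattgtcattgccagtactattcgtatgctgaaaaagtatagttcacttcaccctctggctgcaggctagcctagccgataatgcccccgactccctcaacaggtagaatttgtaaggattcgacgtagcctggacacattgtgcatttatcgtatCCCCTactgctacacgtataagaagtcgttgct
MET14 promoter: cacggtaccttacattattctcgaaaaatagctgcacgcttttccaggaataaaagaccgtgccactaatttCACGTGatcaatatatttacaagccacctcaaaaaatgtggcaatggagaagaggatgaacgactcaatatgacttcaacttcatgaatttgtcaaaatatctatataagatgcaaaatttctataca
STI1 promoter: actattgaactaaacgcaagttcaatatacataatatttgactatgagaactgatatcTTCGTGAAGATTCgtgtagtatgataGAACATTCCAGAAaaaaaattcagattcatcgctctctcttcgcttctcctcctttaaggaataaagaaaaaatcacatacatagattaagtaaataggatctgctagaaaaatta

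Of all 5714 promoters of tested genes that could be read, 22.5% held AGGGG within 300 bases, 3.52% CACGTG and 0.875% the heat shock element in this form. The element AGGGG was in 22 of 30 promoters of an environmental stress list, 9 of them among its 11 called genes. Among all called genes it was in 32.5% of promoters of those with a lower effect and 23.1% of those with a higher one. CACGTG was in 7 of 26 of a methionine and sulfur list, 1 of them among its 5 called genes. A further motif searched for this list, AAACTGTGG, was in 6 of the 26, 1 of them among the 5, and in 0.525% of all promoters read. The heat shock element was in 9 of 20 of a list of heat-shock factor targets, 2 of them among its 5 called genes. A match is a description of the letters and not a measured binding site.

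The 12 libraries held between 8233459 and 14875855 reads. Replicate libraries differed by more than counting noise, with a chi-square per degree of freedom of 1.49 to 6.28 over the 12 pairs. Pairs with the second CEN4 library at 0 min had 5.36 and 6.28, against 2.41 for the pair without it. Pairs with the third cen4- library at 60 min had 5.39 and 3.42, against 2.14. No library stood apart by its root mean square deviation from its group mean, which ran from 0.0991 to 0.125 on the log2 scale and was highest in the third cen4- library at 60 min. The 7 MATa markers summed to 31832 to 32512 normalised counts in cen4- at 60 min and to 38233 to 39689 in CEN4 at 60 min. The weakest of them, ASG7, had means of 203 and 277. The 4 markers of alpha cells summed to 686 to 750.4 and 651 to 696, most of it SAG1 (means of 534 and 492). The 6 markers of sporulating cells summed to 1072 to 1125 and 959 to 1017. URA3 and MET17 had 0 reads in all 12 libraries, as the genotype has it.

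By limma over 5948 genes, 173 passed an adjusted p of 0.05 for the excision effect at 60 min (2.91%), 53 with a higher effect (0.891%) and 120 with a lower one (2.02%). A higher effect means that the RNA rose more, or fell less, on the log2 scale in the excised strain than in the control. At an unadjusted p below 0.05 there were 845. The median effect over all tested genes was -0.00 with a median SE of 0.08, and 13 of the 173 changed at least 2-fold, 1 upwards and 12 downwards. For all 173, the changes of the 3 cen4- libraries lay on one side of those of the 3 CEN4 libraries, as they also did for 28.1% of tested genes without a test (12.8% above and 15.3% below). Without the third cen4- library at 60 min, 271 genes passed, 84 higher and 187 lower. Leaving out any other of the 12 libraries gave between 132 and 210.

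The effect subtracts a strain difference that was already there at 0 min, and 945 genes differed between CEN4* and CEN4 at that time (15.9% of tested genes; 525 higher, 8.83%, and 420 lower, 7.06%). Of the 120 genes with a lower effect, 56 had been higher in CEN4* at 0 min. By 60 min, 29 of these were still higher in cen4-, 15 no longer differed by the test and 12 were lower. A further 39 did not differ at 0 min and were lower at 60 min, and 25 were lower at both times. Of the 53 genes with a higher effect, 30 did not differ at 0 min and were higher at 60 min, 12 were higher at both times, and 11 had been lower in CEN4* at 0 min. The direct comparison of the strains at 60 min found 1608 genes (27.0%), 790 higher (13.3%) and 818 lower (13.8%). The strain difference at 0 min and the effect share the 0 min libraries, so these counts describe the genes and are not a second test.

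**Figure D1:**
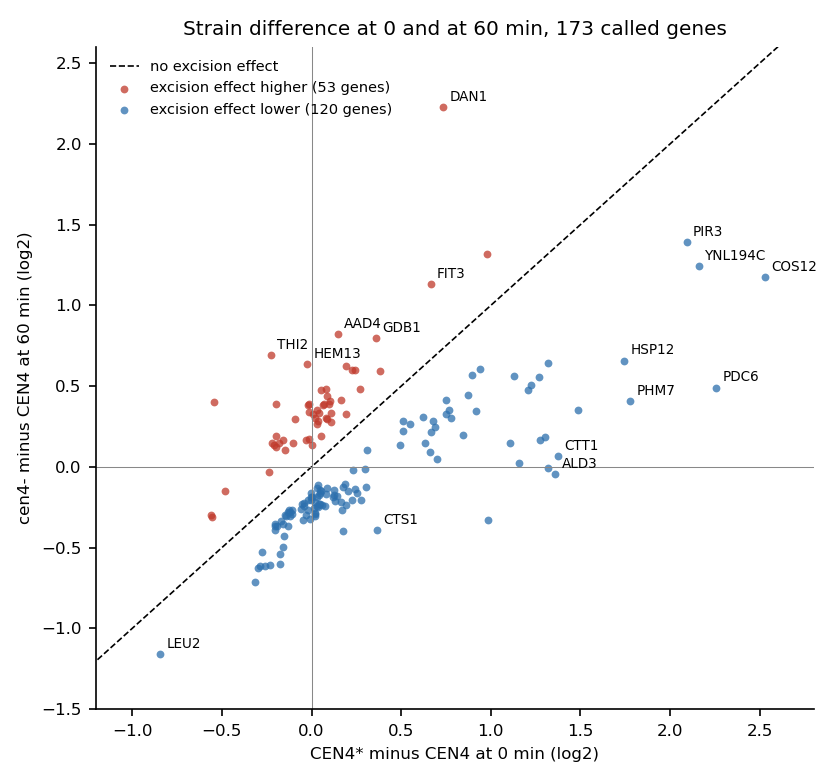
Strain difference at 0 min (CEN4* minus CEN4, horizontal axis, log2) against that at 60 min (cen4- minus CEN4, vertical axis, log2) for the 173 genes called for the excision effect, red for the 53 higher and blue for the 120 lower. The dashed line marks equal differences at both times. PDC6, PHM7, HSP12, CTT1 and ALD3 lie far to the right and below it, having been higher in CEN4* at 0 min, and HEM13, AAD4 and THI2 lie above it near 0 on the horizontal axis.

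Both strains changed much over the hour. In cen4-, 3358 genes (56.5%) differed from CEN4* at 0 min, 1682 higher (28.3%) and 1676 lower (28.2%). In CEN4, 3399 genes (57.1%) differed from its own 0 min, 1709 higher (28.7%) and 1690 lower (28.4%). Among the 120 genes with a lower effect, 55 rose in both strains, 32 fell in both, 15 fell in cen4- with no call in CEN4, 13 rose in CEN4 with no call in cen4-, and 5 rose in CEN4 and fell in cen4-. Among the 53 with a higher effect, 18 rose in both strains, 16 fell in both, 12 rose in cen4- with no call in CEN4, 5 fell in CEN4 with no call in cen4-, and 2 rose in cen4- and fell in CEN4.

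Of the 12 genes whose effect was lower by at least 2-fold, 9 belonged to lists of stress genes. The lists were chosen with earlier results of these data known, so this count is a description and not a test. Of 30 genes of the environmental stress list, 10 had a lower effect and 1 a higher one, against 2.02% and 0.891% of all tested genes. The list's median was -0.23, against -0.00 over all genes. Of 14 genes for desiccation hydrophilins and late stress, 8 had a lower effect and none a higher one, with a median of -0.58. All 30 and 13 of the 14 rose in cen4- over the hour, and all 44 entries rose in CEN4. Over all tested genes 28.3% rose in cen4- and 28.7% in CEN4. The lower effect is therefore a smaller rise on the log2 scale and not a loss. The environmental stress list summed to 24564 to 28962 normalised counts in CEN4 at 0 min and 68361.5 to 75032 at 60 min. In the excised strain it summed to 42859 to 46006.5 and 87260 to 98620. The late stress list summed to 9261 to 11285 and 27975 to 31427 in CEN4, and 12506.5 to 13771 and 26039 to 30889 in the excised strain. At 0 min, 24 of the 30 and 12 of the 14 were higher in CEN4* than in CEN4, against 8.83% of all tested genes. The list medians of this difference were 0.52 and 0.93.

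CTT1, the cytosolic catalase, had 290.3, 384 and 304 normalised counts in CEN4 at 0 min and 1572, 1720.2 and 2023 at 60 min. In the other strain it had 834, 887 and 808 in CEN4* at 0 min and 1625, 1894 and 2032 in cen4- at 60 min. The strains were apart at 0 min with no overlap and overlapped at 60 min. Its excision effect was -1.31 ± 0.15 (SE; limma adjusted p = 1.24e-05), a change 2.48-fold smaller in cen4-. In RNA from whole populations, fewer cells that express a gene and less RNA per cell cannot be told apart, here and for every gene below.

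ALD3, a cytosolic aldehyde dehydrogenase, followed the same course, from 191, 256 and 242 to 939, 993 and 1178 in CEN4 and from 551, 610.5 and 599 to 901, 1055 and 1048 in the excised strain. The groups at 60 min overlapped, and the effect was -1.41 ± 0.14 (limma adjusted p = 9.81e-07). Reads of ALD3 may be shared with near copies, since 59.7% of its 50-base stretches occur once in the genome. GRE1, a hydrophilin, had 138, 195 and 134 and 1115, 1178 and 1439 in CEN4 and 355, 381 and 417 and 1149, 1244 and 1302 in the excised strain, with an effect of -1.33 ± 0.19. It too was higher in all 3 CEN4* libraries at 0 min than in the CEN4 libraries, with overlapping groups at 60 min.

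HSP12, a membrane-stabilising stress protein, kept its strain difference at 60 min. It went from 1903, 2939 and 2258 to 10742, 10758 and 11837 in CEN4, and from 7236, 7896 and 8324 to 15377, 17530.5 and 19946 in the excised strain. All cen4- libraries were above all CEN4 libraries, yet the ratio between the strains had shrunk, from 1.74 to 0.66 on the log2 scale, and the effect was -1.09 ± 0.15 (limma adjusted p = 0.000119). HSP26, a small heat shock chaperone, showed the same with an effect of -1.13 ± 0.16.

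The deepest effect of all was that of PDC6, a minor pyruvate decarboxylase, at -1.77 ± 0.22 (limma adjusted p = 7.13e-07). It had only 18.6, 10.3 and 18 normalised counts in CEN4 at 0 min and 120.4, 123 and 108 at 60 min, and 58.1, 94.2 and 79.9 and 175, 141 and 182 in CEN4* and cen4-. The cen4- libraries remained above the CEN4 libraries at 60 min. Among the other 14 enzymes of ethanol and acetate metabolism, ALD3 and ALD5, a mitochondrial aldehyde dehydrogenase, also had a lower effect (-0.19 for ALD5). None had a higher one, and the list's median was 0.01.

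Further genes with deep lower effects were PHM7 (-1.37), SPS100 (-1.32), a spore wall protein, NQM1 (-1.13), a transaldolase, PAI3 (-1.12), an inhibitor of proteinase A, HXT5 (-1.11), a hexose transporter of slowly growing cells, and GND2 (-0.96), the minor 6-phosphogluconate dehydrogenase. Each was higher in CEN4* at 0 min by the test. SPS100 overlaps a noncoding RNA on the other strand, and strand use in the counting is not given, so reads of the pair cannot be told apart. COS12, a subtelomeric gene, differed from these because its level in the excised strain did not pass the test for a change. It had 60.3, 53.5 and 62.1 in CEN4* and 52.3, 56.3 and 55.8 in cen4-, while CEN4 went from 14.2, 6.85 and 8.16 to 29.3, 21 and 21.6, all low counts, with an effect of -1.36 ± 0.33.

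GDB1, the glycogen debranching enzyme, was the 1 stress-list gene with a higher effect, 0.44 ± 0.09 (limma adjusted p = 0.000764). It rose from 252, 258 and 291 to 399, 358 and 398 in CEN4 and from 346, 325 and 355 to 628, 668 and 714 in the excised strain. Of the 17 glycogen and trehalose genes, TSL1, a subunit of trehalose synthase, had a lower effect (-0.67 ± 0.14) and GDB1 a higher one. The neutral trehalase gene NTH1, which lies next to the excised centromere, had an effect of -0.23 ± 0.07 that did not pass (limma adjusted p = 0.0518).

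Lower effects were also found among genes expressed in newborn daughter cells and at the passage from mitosis to G1. Of 18 such genes, 11 had a lower effect and none a higher one, against 2.02% and 0.891% of all tested genes, with a median of -0.23. These 11 were CTS1, PIR3, DSE2, DSE1, SCW11, PIR1, EGT2, ASH1, PST1, AMN1 and SUN4. In the direct comparison of the strains at 60 min, 14 of the 18 were lower in cen4- and 1 was higher. Over all tested genes these shares were 13.8% and 13.3%. At 0 min 5 of the 18 were higher and 3 lower in CEN4*, against 8.83% and 7.06% of all tested genes. Over the hour 17 of the 18 fell in cen4- and 12 in CEN4, against 28.2% and 28.4% of all tested genes.

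CTS1, the chitinase that separates mother and daughter, rose in CEN4 from 9302, 8816 and 9831 to 12422, 11648 and 11022 normalised counts. In the excised strain it fell from 11861, 12387 and 11790.0 to 8444, 8539 and 9794. All 3 cen4- libraries were below all 3 CEN4 libraries at 60 min, after the opposite order at 0 min, and the effect was -0.76 ± 0.09 (limma adjusted p = 1.71e-05).

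DSE2, a daughter-specific wall-degrading protein, had 5672, 5616 and 5736 and 6274, 6118 and 5607 in CEN4 at 0 and 60 min. It fell from 6429, 6338 and 6439.7 in CEN4* to 4439, 4428 and 4809 in cen4-. The groups at 60 min did not overlap, and the effect was -0.57 ± 0.06 (limma adjusted p = 9.52e-10). DSE1, another daughter-specific gene, and SCW11, a wall glucanase, had effects of -0.43 and -0.38.

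ASH1, the repressor of HO that is carried as RNA into the daughter, fell in both strains. It went from 4687, 4763 and 4517 to 2884, 2931 and 2947 in CEN4 and from 3791, 3692 and 3953 to 2028, 1962 and 1749 in the excised strain, with an effect of -0.32 ± 0.06 (limma adjusted p = 0.000451). The excised strain was below CEN4 at 0 min as well as at 60 min, with no overlap, and the gap had widened. HO itself, the mating-type endonuclease gene, which lies on chromosome IV, had a higher effect, 0.38 ± 0.10, with 651, 661 and 667 in CEN4 and 969.5, 967 and 1074 in cen4- at 60 min. It was already higher in CEN4* at 0 min by the test, with 663, 582 and 753 in CEN4 and 724, 802 and 795 in CEN4*, where the groups overlapped. EGT2, a cell-separation protein, fell in both strains as ASH1 did (-0.34).

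PIR3, a wall protein in the same list, behaved as the stress genes did. It was 393, 419 and 362 in CEN4 and 1609, 1704 and 1696 in CEN4* at 0 min, then 1432, 1329.8 and 1617 and 3428, 3788 and 4287 at 60 min, so it was higher in the excised strain at both times. Its effect was -0.70 ± 0.13 (limma adjusted p = 0.00362).

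**Figure D2:**
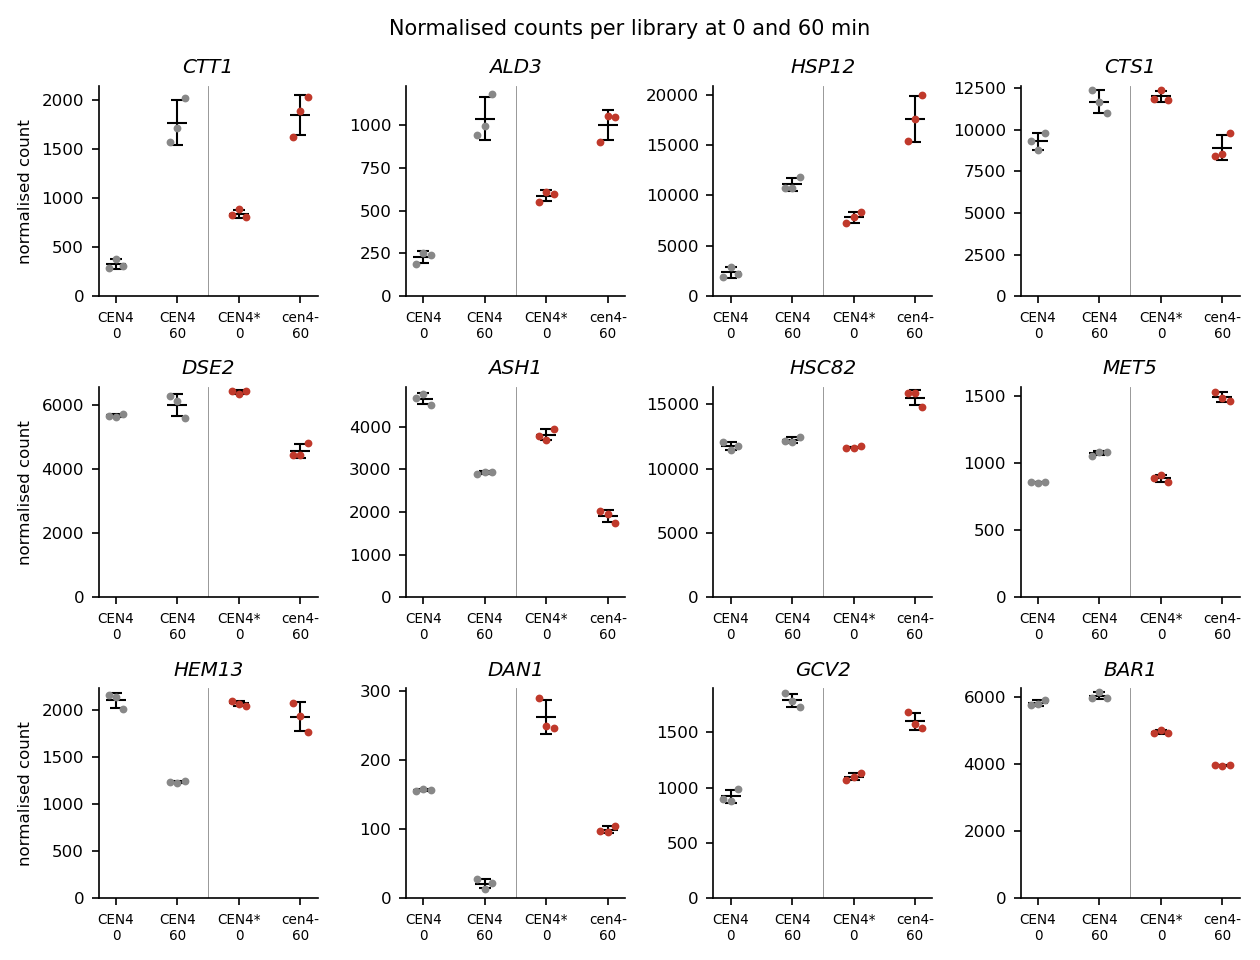
Normalised counts (vertical axes, starting at 0) of 12 genes in each library of CEN4 at 0 and 60 min (grey) and of CEN4* at 0 min and cen4- at 60 min (red). Points are libraries, and bars are the mean and SD of 3. CTT1, ALD3 and HSP12 start higher in CEN4*, CTS1 and DSE2 end lower in cen4-, and HSC82 and MET5 start level and end higher in cen4-.

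Of 20 heat-shock factor targets, most of them chaperones, 5 had a higher effect and none a lower one, with a median of 0.11. Over all tested genes 0.891% had a higher effect. The 5 were SSA2 (0.39), a cytosolic Hsp70, AHA1 (0.36), the activator of Hsp90, HSC82 (0.35), the constitutive Hsp90, STI1 (0.25), which bridges Hsp70 and Hsp90, and YDJ1 (0.25), a cofactor of Hsp70. The other 15 did not pass the test and had values from -0.27 for HSP104, a disaggregase, to 0.20 for CPR6, an Hsp90 cochaperone. Of all 20, 14 had a value above 0.

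HSC82 had 12078, 11407 and 11735 normalised counts in CEN4 at 0 min and 12152, 12064 and 12469.8 at 60 min. It started at 11609, 11585 and 11716 in CEN4* and reached 15840.5, 15844 and 14803 in cen4-. All cen4- libraries were above all CEN4 libraries at 60 min, after overlapping at 0 min, and the effect had an SE of 0.05 (limma adjusted p = 5.00e-07). STI1, whose promoter is shown above, went from 2471, 2559.7 and 2617 to 3358, 3509 and 3595 in the excised strain and from 2233, 2297 and 2306 to 2601, 2601 and 2654 in CEN4 (effect 0.25 ± 0.06). SSA2 shares much sequence with its paralogue, since 41.9% of its 50-base stretches are unique, so its value may hold reads of SSA1.

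Enzymes of sulfate assimilation and methionine synthesis also had higher effects, and 24 of the 26 tested genes of this list had a value above 0 where 2928 of all 5948 did. By the test 5 of 26 were higher, against 0.891% of all tested genes, and none lower, with a median of 0.16. They were MET5 (0.43), a subunit of sulfite reductase, MET13 (0.40), a methylenetetrahydrofolate reductase, MET14 (0.39), the adenylylsulfate kinase, MET2 (0.36), the homoserine acetyltransferase, and MET3 (0.33), the ATP sulfurylase. None of the 5 differed between the strains at 0 min by the test, although all CEN4* libraries of MET3 lay below the CEN4 libraries then. The strain difference of MET3 was -0.16 at 0 min and 0.17 at 60 min. The count of 5 fell to 2 without the first CEN4 library at 60 min and to 3 without the third CEN4* library at 0 min. Both strains lack MET17, also called MET15, so they depend on methionine from the medium.

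MET5 rose from 861, 850.0 and 862 to 1058, 1083 and 1084 in CEN4. In the excised strain it rose from 892, 914 and 859.8 to 1536, 1489.9 and 1464. The groups overlapped at 0 min and were apart at 60 min, and the effect of 1.34-fold had a limma adjusted p of 1.53e-05. MET14 had 653, 666 and 686 in CEN4 and 797, 779 and 888 in cen4- at 60 min, after 511, 496 and 474 and 464, 448 and 476 at 0 min.

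Of the 12 genes of glycine decarboxylase and one-carbon metabolism, 4 had a lower effect: GCV2 (-0.41), GCV1 (-0.38) and GCV3 (-0.30), which encode 3 subunits of the glycine decarboxylase of mitochondria, and SHM2 (-0.28), the cytosolic serine hydroxymethyltransferase. MET13, which is in both lists, was the 1 higher, and the list median was -0.07. Over all tested genes 2.02% had a lower effect and 0.891% a higher one. GCV2 rose from 897, 882 and 990.0 to 1850.0, 1779 and 1731 in CEN4 and from 1071, 1096 and 1129.9 to 1685, 1570.3 and 1539.8 in the excised strain. It was higher in CEN4* at 0 min and lower in cen4- at 60 min with no overlap at either time, and the effect had an SE of 0.07 (limma adjusted p = 1.66e-05). Of 13 purine synthesis genes, ADE17, for the last steps of IMP synthesis, had a lower effect (-0.36 ± 0.06) and the others did not pass.

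HEM13 had the higher effect with the smallest adjusted p. It encodes coproporphyrinogen oxidase, an oxygen-consuming enzyme of heme synthesis that is repressed when oxygen and heme are plentiful. In CEN4 it fell from 2159, 2136 and 2010.2 normalised counts to 1235, 1221 and 1247. In the excised strain it went from 2094, 2065 and 2038 to 2073, 1932 and 1767. The strains overlapped at 0 min and were apart at 60 min, so that the effect of 0.66 ± 0.06 (limma adjusted p = 1.39e-11) was a fall that CEN4 showed and cen4- showed to a smaller extent (-0.77 and -0.11).

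DAN1, a wall mannoprotein of anaerobic cells, had the largest higher effect, 1.49 ± 0.32 or 2.82-fold (limma adjusted p = 0.00332). It fell in both strains, from 155, 159 and 157 to 27.3, 13.7 and 22.6 in CEN4 and from 291, 249.5 and 246 to 97, 96 and 105 in the excised strain. The excised strain was higher at both times with no overlap. Of the 7 genes of the DAN and TIR family, TIR1 (0.33) and TIP1 (0.20) also had higher effects, where 0.891% of all tested genes did. None of the 7 had a lower one, and the median was 0.27. TIR1 was in fact lower in the excised strain at both times, with 3232, 2898 and 2922 in CEN4 and 2706, 2722 and 2716 in cen4- at 60 min, and its higher effect is a smaller fall.

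Single genes of several nutrient pathways had higher effects without the rest of their lists. THI2, an activator of thiamine synthesis genes, had 56.7, 72.1 and 83.6 in CEN4 and 114, 109.6 and 118 in cen4- at 60 min, after 70.9, 91.3 and 71 and 68.9, 70.7 and 58.3 at 0 min (0.92 ± 0.21, limma adjusted p = 0.00362). The CEN4* values lay just below the CEN4 values at 0 min, with no call, and the cen4- values lay above them at 60 min. PHO3, an acid phosphatase that thiamine represses, had 0.24 ± 0.05, and the other 15 of 17 thiamine genes did not pass, with a list median of 0.00.

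FIT3, a wall mannoprotein that holds iron siderophores, had an effect of 0.47 ± 0.07 (limma adjusted p = 7.13e-07), and FET4, the low-affinity iron transporter, had -0.31 ± 0.06. They were the 2 called genes of 27 in the iron regulon. SER3, the phosphoglycerate dehydrogenase of serine synthesis, had 0.43 ± 0.09, while HIS4, a histidine synthesis enzyme, had -0.24 ± 0.06, the 2 called of 38 genes under Gcn4. SER3 overlaps the noncoding RNA that is transcribed through its promoter, on the same strand, and reads of the overlap cannot be assigned. The transporters PDR5 and SNQ2, which export drugs, had effects of 0.17 and 0.21, and the other 14 pleiotropic drug resistance genes did not pass, though leaving out 1 library moved the count of 2 to between 0 (the third CEN4 library at 60 min, the third CEN4* or the second cen4- library) and 4 (the first CEN4* library).

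Of 15 hexose transporters tested, HXT5 and HXT1, the low-affinity transporter, had a lower effect, where 2.02% of all tested genes did. HXT1 fell from 3419, 3568 and 3571 to 1996, 1888 and 1900.3 in CEN4 and from 3926, 4087 and 3879 to 1545, 1620.3 and 1632 in the excised strain, with an effect of -0.44 ± 0.10 (limma adjusted p = 0.0157). The CEN4* values lay above the CEN4 values at 0 min, with no call. The cen4- values at 60 min were the lowest, with no overlap. Of 30 glucose-repressed and respiratory genes only PCK1, for gluconeogenesis, passed (-0.57 ± 0.14), and of the 17 genes of the phosphate list, which also holds the kinetochore gene CTF19, only PHM8 (-0.34 ± 0.08). None of 24 ergosterol genes passed by limma, with a median of 0.04.

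In a list of 23 genes for a cells and pheromone response, 11 were lower and none higher in CEN4* at 0 min. At 60 min 15 were lower and 1 higher in cen4-. Over all tested genes 7.06% were lower and 8.83% higher at 0 min, and 13.8% and 13.3% at 60 min. For the excision effect 3 were lower: AGA1 (-0.40) and AGA2 (-0.25), the subunits of a-agglutinin, and BAR1 (-0.37), the protease that degrades alpha-factor. PRM5, a pheromone-regulated membrane protein, was higher (0.29). The list median was -0.10, and over all tested genes 2.02% had a lower effect and 0.891% a higher one. BAR1 had 5778, 5797 and 5927 and 5982, 6167 and 5983 in CEN4 at 0 and 60 min, 4929, 5021 and 4927 in CEN4* and 3974, 3941 and 3983 in cen4-. It was lower in the excised strain at 0 min and further below at 60 min, with no overlap at either time (limma adjusted p for the effect = 7.13e-07). None of the 4 alpha-cell markers and none of 18 meiosis genes was called by limma, with medians of 0.01 and 0.13.

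Counts in the lists of cell cycle genes stand beside the 2.91% called over all genes. Of 8 core histone genes all had a value below 0, and 3 passed: HHF1 (-0.19), HHT1 (-0.18) and HHT2 (-0.15), for histones H4 and H3. HHF1 rose from 8371, 8455 and 8463 to 14149, 13528 and 13839 in CEN4 and from 8386, 8239 and 8281 to 11405, 12006 and 12568 in the excised strain, a smaller rise with no overlap at 60 min. Without the first cen4- library at 60 min no histone gene passed, and 1 passed without the first or the third CEN4 library at 0 min, the second or the third CEN4 library at 60 min, or the first or second CEN4* library. Copies of H3 and H4 genes share sequence (78.7% of HHF1 stretches are unique), so the split between copies is uncertain.

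Of 27 G1/S genes, RFA2, a subunit of replication protein A, had a lower effect (-0.24 ± 0.07), and 25 had a value below 0, with a median of -0.11. The count was 5 without the third cen4- library at 60 min, 2 without the first CEN4 library at 0 min, and 0 without the second or the third CEN4 library at 60 min, the third CEN4* library or the first cen4- library. Of 22 genes of the G2/M CLB2 cluster, KIN3, a mitotic kinase (0.40 ± 0.10), and PHO3 had a higher effect, with a median of 0.12. Without that same library 6 passed, without the second CEN4 library at 0 min 4, and without the first cen4- library 1. KIN3 had 535, 554 and 586 in CEN4 and 804, 719 and 663 in cen4- at 60 min, after 736, 836 and 734 and 737, 770.0 and 765 at 0 min. The cen4- values lay above the CEN4 values at 60 min, with overlap at 0 min.

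None of 41 kinetochore genes passed by limma (median -0.01), nor any of 18 genes of the spindle checkpoint and passenger complex (-0.03), 5 of condensin, 9 of cohesin (-0.08) or 20 of the DNA damage response (0.01). At the 2.91% called over all genes, lists of these sizes would hold few calls or none. The largest values among kinetochore genes were -0.30 for CHL4 and 0.24 for MCM21. With a median SE of 0.08 and a smallest called effect of 0.13 in size, smaller changes would not have been called, and 2 checkpoint genes passed with array weights.

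Of 137 ribosomal protein genes 14 had a lower effect, against 2.02% of all tested genes, and none a higher one, with a median of -0.10. The effects were small, from -0.20 for RPL14B to -0.14 for RPL13B among those called. The count ran from 3 without the third CEN4 library at 0 min to 21 without the second, with 8 without the first. It was also 6 without the third CEN4 library at 60 min, and 7 without the first and 8 without the third CEN4* library. Most of the ribosomal protein genes were lower in the excised strain at both times, 105 of the 137 at 0 min and 112 at 60 min. Over all tested genes 7.06% and 13.8% were lower. Of 62 ribosome biogenesis genes none passed by limma (median 0.03), and of 34 proteasome genes only RPN6, a lid subunit (0.23), on chromosome IV, passed. None of 11 tested PAU genes and 7 GAL genes passed by limma.

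**Figure D3:**
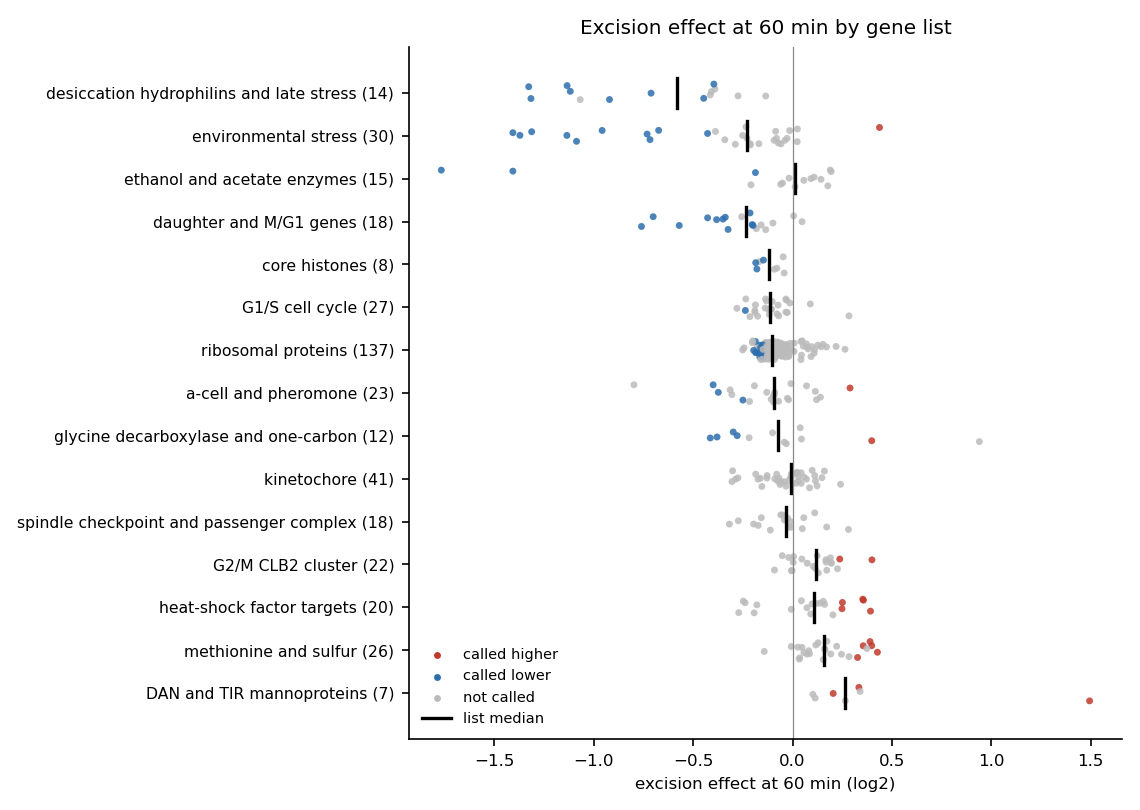
Excision effect at 60 min (horizontal axis, log2) of the tested members of 15 gene lists, with the number tested in brackets. Points are genes, red where called higher, blue where called lower and grey where not called, and the black bar is the list's median. The 2 stress lists and the daughter-cell list lie mostly below 0 (medians -0.58, -0.23 and -0.23), and the sulfur list mostly above it (0.16).

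Of the marker genes, LEU2, carried with the recombinase in both strains, had 3511, 3807 and 3722 normalised counts in CEN4 and 1991, 2065 and 2091 in CEN4* at 0 min. At 60 min it had 4785, 4598 and 4989 in CEN4 and 2133, 2046 and 2262 in cen4-. It was lower in the excised strain at both times with no overlap, and the effect was -0.31 ± 0.06 (limma adjusted p = 0.000103). The level of the recombinase itself is not in the table.

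The excision effect at 60 min was set against those at 30 and 120 min by testing their difference, in which the 0 min libraries cancel. Between 30 and 60 min the effect of 53 genes changed (0.891%), 13 upwards (0.219%) and 40 downwards (0.672%). Between 60 and 120 min that of 995 changed (16.7%), 457 upwards (7.68%) and 538 downwards (9.05%). Of the 53 genes with a higher effect at 60 min, 6 were above their value at 30 min, 23 rose further by 120 min and 2 fell back. Of the 120 with a lower effect, 24 were below their value at 30 min, 34 fell further by 120 min and 13 came back up.

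In the daughter-cell list 8 of the 18 genes had a lower effect at 60 than at 30 min, against 0.672% of all tested genes. Between 60 and 120 min 7 of the 18 moved higher and 2 lower, against 7.68% and 9.05% of all tested genes. ASH1, EGT2, PST1, DSE4 and PCL9 were among both the 8 and the 7. ASH1 had effects of 0.06, -0.32 and 0.05 at 30, 60 and 120 min, EGT2 -0.08, -0.34 and -0.01, and PST1 0.15, -0.21 and 0.17. CTS1 and DSE2 had effects of -0.54 and -0.32 at 30 min and of -0.65 and -0.49 at 120 min. In all, 10 called genes differed from both neighbouring times in the direction of an extreme at 60 min. The lower ones were ASH1, EGT2, PST1, PHM7, YNL194C, SSE2, BDH2, NCW2 and AIM44, and the higher one was KTI11.

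Of the stress genes, GRE1 had effects of -0.39, -1.33 and -2.02 at 30, 60 and 120 min, lower at each step by the test. ALD3 had -0.28, -1.41 and -1.59, and its difference between 60 and 120 min did not pass. YNL194C, an eisosome protein, was at -0.12, -0.92 and -0.13, and TSL1 at -0.14, -0.67 and 0.21. Of the 30 environmental stress genes, 17 were higher at 120 than at 60 min and none lower, against 7.68% and 9.05% of all tested genes. HEM13 climbed through 0.27, 0.66 and 1.03. HSC82 had 0.36, 0.35 and 0.77, a rise between 60 and 120 min only by the test. Of the 20 heat-shock factor targets, 18 were higher at 120 than at 60 min, against the same 7.68% of all tested genes. The 3 effects share the same 0 min libraries.

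**Figure D4:**
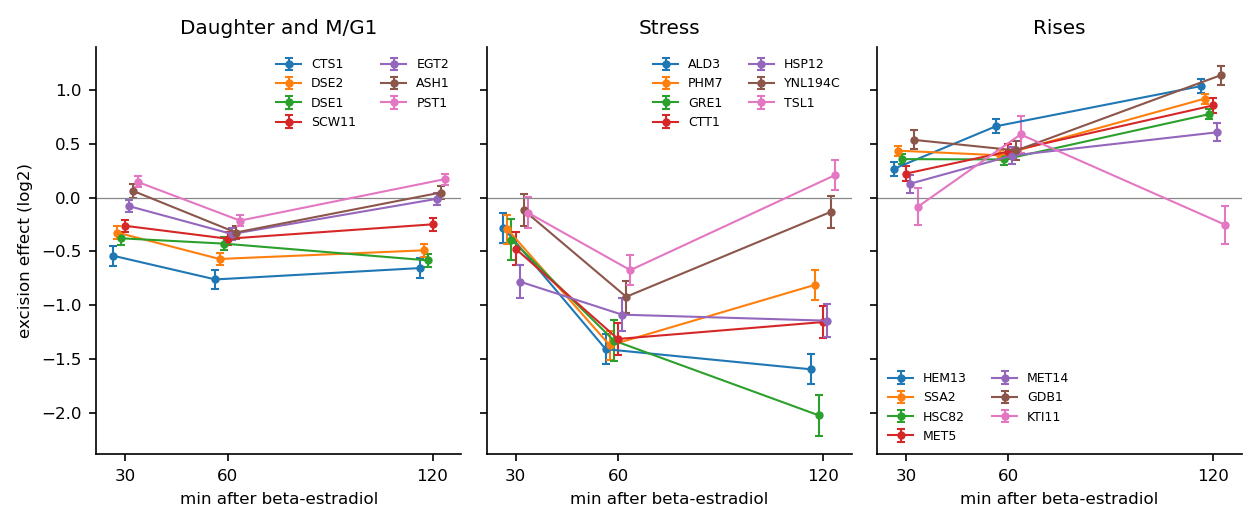
Excision effect (vertical axis, log2) at 30, 60 and 120 min after beta-estradiol (horizontal axis) for 7 called daughter-cell or M/G1 genes, 7 called stress genes and 7 called genes with a higher effect. Points are shifted sideways for legibility, and bars are the SE of the fit. ASH1, EGT2, PST1, YNL194C and TSL1 are lowest at 60 min, and HEM13, HSC82 and SSA2 are highest at 120 min.

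KTI11, a zinc protein of diphthamide synthesis, had an effect of 0.59 ± 0.17 that only just passed (limma adjusted p = 0.0489) and was lost when any 1 of the 12 libraries was left out. It overlaps a reading frame on the other strand, with which it may share reads. YLR294C, a reading frame described as dubious, had 0.94 ± 0.23 from counts below 100 in every one of the 12 libraries, and was lost without the third CEN4* library (limma adjusted p = 0.0588). YPK2, a kinase of the membrane stress pathway (0.40), KIN3 and MET13 were each lost without 1 or more single libraries.

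Chromosome IV, the chromosome that lost its centromere, held 768 of the tested genes. The median effect on it was 0.04 above that of the other nuclear genes at 60 min, 0.03 at 30 min and 0.13 at 120 min, and at 60 min this was the largest shift in size of the 16 chromosomes. By library, the shift since 0 min was 0.0645, 0.0560 and 0.00264 in cen4- and 0.00193, 0.00454 and -0.00782 in CEN4. The third cen4- library fell among the CEN4 libraries and the groups overlapped (exact permutation test, two-sided, p = 0.2, where 3 against 3 cannot go below 0.1). Leaving out each library in turn gave shifts of 0.04 to 0.06. The groups did not overlap for chromosomes XI, XII and XIV (exact p = 0.1 each), on which cen4- was lower.

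By single genes, 14 on chromosome IV had a higher effect and 7 a lower one, against 39 and 113 of 5177 on the other nuclear chromosomes (0.753% and 2.18%). Chromosome IV held 12.9% of tested genes, 26.4% of those with a higher effect and 5.83% of those with a lower one. An effect above 0 was found in 61.5% of its genes and in 47.4% of the others. The 14 were AAD4, HEM13, HO, CPR1, AHA1, EMI1, CDC53, CYM1, IDP1, INH1, RPN6, SWR1, SNQ2 and ESF1, and their number was 32 without the third cen4- library at 60 min.

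CDC53, the cullin of the SCF ubiquitin ligase (chrIV:224304-226751), did not differ between the strains at 0 min by the test, although the CEN4* libraries lay above the CEN4 libraries. It had 1248, 1214 and 1191 and 1365, 1363 and 1363 in CEN4 at 0 and 60 min, 1311, 1311 and 1302 in CEN4* and 1857, 1952 and 1642 in cen4-. The cen4- libraries were above all others, with an effect of 0.31 ± 0.06 (limma adjusted p = 0.000622). AAD4, a subtelomeric aryl-alcohol dehydrogenase (chrIV:17577-18566), had 135, 154 and 170.1 in CEN4 and 282, 312 and 223 in cen4- at 60 min, with an effect of 0.67 ± 0.15. Its reads may be shared with related copies (78.6% of stretches unique). INH1, the inhibitor of the mitochondrial ATPase, was lower in the excised strain at both times, and its effect of 0.27 was a larger rise in cen4-.

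**Figure D5:**
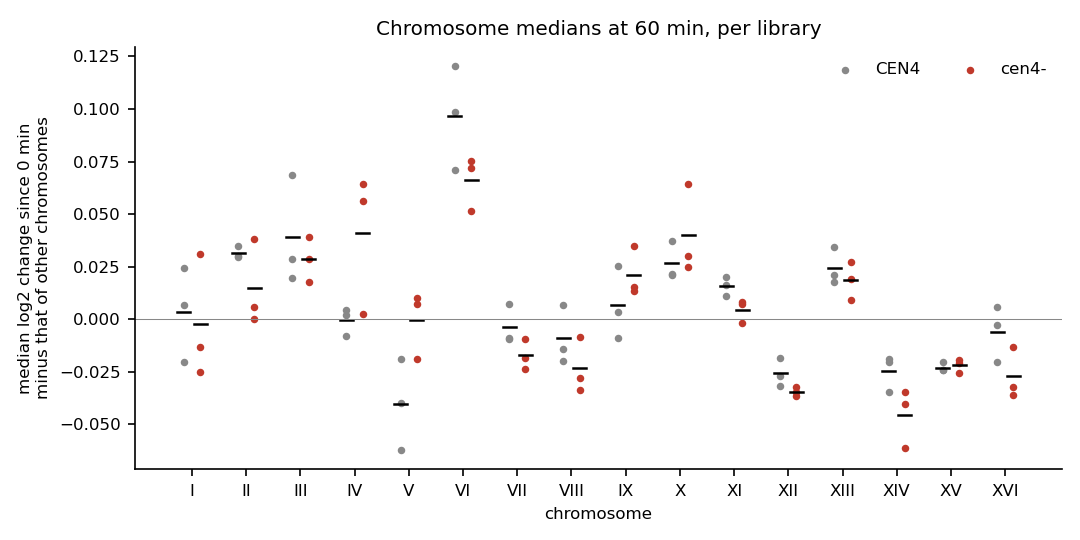
Median log2 change since 0 min of the genes on each of the 16 nuclear chromosomes minus that of all other chromosomes (vertical axis), for the 3 CEN4 libraries (grey) and the 3 cen4- libraries (red) at 60 min. Bars are group means. On chromosome IV 2 of the 3 cen4- libraries lie above the CEN4 libraries and the third lies among them, at 0.00264.

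No gene directly beside the excised centromere was called. None of the 5 nearest tested genes on either side was called by limma, and their effects ran from -0.23 for NTH1 (chrIV:450220-452475) to 0.18 for YDR003W-A. RMD1 (chrIV:447984-449276), the nearest on the left, had 429, 442 and 396 in CEN4 and 476, 465 and 472 in cen4- at 60 min, after 527, 464 and 474 and 500.3, 512 and 473 at 0 min. Its effect was 0.14 ± 0.10, and the groups at 60 min were apart. MCD1, the kleisin subunit of cohesin (chrIV:444683-446383), had -0.19 ± 0.07. Over the 29 genes within 25 kb of the centromere the median was 0.01, with 1 call higher and none lower.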

How the data were processed

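Total RNA of 30 libraries was sequenced, and the 12 of 4 groups enter the excision effect at 60 min. The authors deposited 1 signal value per gene and library, read counts normalised by DESeq2 size factors as the table's name and the submitters' processing notes give it. STAR 2.6.1, DESeq2 and build R64 (sacCer3) are named in the submitters' processing notes. The read counter, strand setting and annotation release are not given in the sources used here. Values in all libraries were whole multiples of 1 step within 1e-06 of a read (100% of values), so counts could be recovered in 28 libraries. The 2 others, CEN4 at 120 min replicate 2 and CEN4 at 180 min replicate 3, have steps near 1 and stay out of the count tests. Of 7127 genes, 350 were at 0 throughout and 6047 matched the R64 annotation, from which coordinates and sequences come.

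Tests used limma 3.58.1 (R 4.3.3) on log2(value + 1), which understates changes of weak genes, with trend and robust options, 10 group means, all 30 libraries and 20 residual degrees of freedom. Tested were 5948 genes whose mean reached 10 normalised counts, and calls used Benjamini-Hochberg adjusted p below 0.05 over all of them. The procedure was tested on simulated data. Single values used exact permutation tests over libraries. Alternatives were other pseudocounts, filters, scalings and limma options, a replicate block, edgeR 4.0.16, DESeq2 1.42.0 and leaving out each library.

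Replicate numbers within a group are in accession order. Libraries are from 3 independent experiments per the labels. The limma p-values measure the spread of libraries within groups, pooled over all 30 libraries. The fit did not link libraries of different times that may come from the same experiment, so the spread of the effect between experiments was not measured. No counting interval is given, because no molecular identifiers were used and reads may be copies of 1 molecule. Sequence uniqueness is the share of a gene's 50-base stretches found once in R64. Genes, gene lists and comparisons were chosen with earlier results of these data known. The genes named are the 15 largest effects in each direction, up to 8 each way not called at 0 min, up to 4 called per list (or the most abundant member), the 5 genes on each side of the centromere, the strain markers and the 5 largest differences each way to 30 and 120 min. Any other gene was named after its values were seen.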

Additional observations from a re-analysis of the deposited data

Results flagged for a closer look

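The effect at 60 min differed from that at 30 min for 53 genes by limma's test of the difference. The largest differences upwards were those of KTI11 (0.67 on the log2 scale), YBR230W-A (0.60), RPL10 (0.47), YOR338W (0.44) and HEM13 (0.40). The largest downwards were ALD3 (-1.13), PHM7 (-1.08), GRE1 (-0.94), PIR3 (-0.93) and TKL2 (-0.92), a transketolase. RPL10, a ribosomal protein gene, and YBR230W-A were not called for the effect at 60 min itself.

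The effect at 120 min differed from that at 60 min for 995 genes. The largest differences upwards were YFL065C (1.95), SOE1 (1.62), YDR215C (1.03), BSC1 (0.96) and HVG1 (0.90), and the largest downwards tH(GUG)E2 (-2.13), a transfer RNA, HSP33 (-1.81), DAD4 (-1.53), RRT5 (-1.29) and HOP2 (-1.06). Only 7.69% of the 50-base stretches of YFL065C and 23.6% of those of HSP33 are unique, and HVG1 overlaps a gene on the other strand, so their counts may hold reads of other genes. None of these 10 was called for the effect at 60 min.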

How the results depend on the processing

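Of the excision effect at 60 min, 173 genes called became 388 with array weights (136 higher, 252 lower). Other settings for it gave 134 to 196, among them 173 with edgeR (47 higher, 126 lower) and 187 with DESeq2 (50 and 137). Leaving out 1 library gave 132 to 271, with 39 to 84 higher and 88 to 187 lower. The highest was without the third cen4- library at 60 min, which kept 160 of the 173. Of the genes called for the excision effect at 60 minus 30 min, 53 became 154 with array weights, 32 with no trend or robust option and 83 with edgeR, and 37 to 59 when leaving out 1 library. Those for 120 minus 60 min went from 995 to 782 to 1077 when leaving out 1 library, those between strains at 60 min from 1608 to 1288 to 1542, and the chromosome IV shift from 0.04 to between 0.04 and 0.06. No called effect of a named gene changed sign under any of the 23 alternatives, while uncalled ones near 0 such as SOE1 (-0.26 to 0.33) and DAD4 (-0.12 to 0.10, leaving out 1 library each) did: of 2484 values, 2307 kept their side of the threshold, 171 lost the call and 6 gained it. The cause of these changes was not tested. Whether the libraries' shared title numbers pair them could not be settled. Deviations of same-numbered libraries at 0 and 60 min correlated weakly, at -0.03 to 0.12, above 0.1 for 1 of 6 pairs. Yet 4 of 6 CEN4 libraries at these times correlated best with their own number. At 30 and 120 min every CEN4 library correlated better with another number, and at 180 min only the first did. Over all times the 15 same-numbered pairs ran from -0.10 to 0.12, with 1 above 0.1. With a replicate block, 196 genes were called (58 higher, 138 lower). The sulfur list had 8 genes higher with array weights and 3 with edgeR, and the ribosomal protein list 36 lower with array weights, 30 with DESeq2 and 5 with no trend or robust option. Weak genes had wide errors, with an SE of 0.22 for PDC6 and 0.33 for COS12 against a median of 0.08.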

Other observations

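Some genes outside the lists above also had an excision effect at 60 min with no call between the strains at 0 min. They were picked after their values were seen, and no test was made of them together. The CEN4* libraries of ERP3, AXL2 and MPD1 all lay above the CEN4 libraries at 0 min, and those of YLR042C all lay below. ERP1 (-0.21) and ERP3 (-0.35), p24 proteins of vesicles between endoplasmic reticulum and Golgi, had lower effects. So did ALG5 (-0.27), which makes the glucose donor for protein glycosylation, CWH41 (-0.27), the glucosidase that first trims the added glycan, PMT4 (-0.20), a protein O-mannosyltransferase, PSA1 (-0.18), which makes GDP-mannose, and MPD1 (-0.27), a disulfide isomerase. ERP3 had 633, 701 and 676 normalised counts in CEN4 and 529, 558 and 651 in cen4- at 60 min, after 492, 535 and 530.5 and 575, 541 and 593 at 0 min, and the groups at 60 min overlapped. AXL2 (-0.31), a landmark of axial budding, and KAR1 (-0.31), a spindle pole body protein, were lower as well.

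Higher effects with no call at 0 min included YHB1 (0.32), the flavohemoglobin that removes nitric oxide, and TDH3 (0.13), a glyceraldehyde-3-phosphate dehydrogenase. YLR042C had a lower effect. It rose in both strains, from 279, 284 and 299.5 to 671, 656 and 706 in CEN4 and from 271, 269.9 and 226 to 393, 459 and 491 in the excised strain. Its effect was -0.43 ± 0.10 (limma adjusted p = 0.00568), and the cen4- libraries were all below the CEN4 libraries at 60 min.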
